A study of Mus musculus with 27 samples.

Results

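The genes described here encode the subunits of the 4 respiratory chain complexes and of ATP synthase (complex V), with a set of complex I assembly factors and 1 supercomplex factor. Members were the rows of the count table whose symbol begins with Ndufa, Ndufb, Ndufc, Ndufs, Ndufv, Uqcr, Cox4 to Cox8 or Atp5, or is Sdha, Sdhb, Sdhc or Sdhd, together with the protein-coding genes of mitochondrial DNA, and a member needed at least 10 counts in 6 libraries or more. The rule matched 107 gene symbols and kept 102 of the 23191 named in the table, of which 89 lie in the nucleus and 13 in mitochondrial DNA. Liver RNA-Seq was available for 27 male mice on a C57BL/6J background, 14 littermate controls and 13 HGFAC-KO mice, which carry a germline CRISPR/Cas9 allele at the first exons of *Hgfac* in all tissues. Mice were 8 weeks old when they were put on chow or on a diet rich in fat and sucrose (HF/HS) for 4 weeks. There were 7 control mice on chow, 6 HGFAC-KO mice on chow, 7 control mice on HF/HS and 7 HGFAC-KO mice on HF/HS, and the comparisons ask what the diet and the loss of HGFAC, a liver-secreted activator of hepatocyte growth factor, do to these transcripts.

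The respiratory chain sits in the inner mitochondrial membrane. Complex I takes electrons from NADH and complex II from succinate, complex III passes them from ubiquinol to cytochrome c, complex IV hands them to oxygen, and complex V uses the proton gradient to make ATP. Most subunits are encoded in the nucleus and imported, whereas the hydrophobic core of complexes I, III, IV and V is made inside the organelle from mitochondrial DNA, so that both genomes have to supply each of these complexes. Complex II is wholly nuclear encoded. Liver relies on this pathway for fatty acid oxidation, gluconeogenesis and urea synthesis.

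Depth ran from 36056177 to 57298657 counts per library, with a median of 47239271. *Hgfac* lay between 65.4 and 101 CPM (counts scaled to an equal library total) in HGFAC-KO mice and between 183 and 296 CPM in controls, without overlap on either diet, so the labels held, and the transcript was not lost. The hepatocyte markers *Alb*, *Apoa1* and *Ttr* averaged 66719, 10740 and 4022 CPM, while the muscle markers *Ckm*, *Acta1*, *Mb* and *Myh4* together reached at most 0.418 CPM and the brown fat marker *Ucp1* had 1 count in all 27 mice. Of the 43 markers measured, *Retnlg* and the muscle and fat markers had too few counts to be tested. In the diet comparison of HGFAC-KO mice the Kupffer cell genes *Clec4f* and *Cd5l* (log2 fold changes 0.65 and 0.68) and the sinusoidal gene *Stab2* (0.42) were higher on HF/HS and the hepatocyte gene *Tat* lower (-0.75). In control mice *Apoa1* (0.39), *Colec11* (0.26), *Ecm1* (0.28) and *S100a8* (1.62) were higher and *Tat* (-0.51), *Lrat* (-0.60) and *Hba-a2* (-1.02) lower. These markers had an edgeR adjusted p under 0.05, as did 5.89% of all genes in HGFAC-KO mice and 10.5% in controls. In HGFAC-KO mice the summed level of 5 Kupffer markers was 93.3 to 144 CPM on chow and 120 to 208 CPM on HF/HS. The summed level of 6 hepatocyte markers, most of it *Alb*, was 85561 to 97402 CPM and 84026 to 111840 CPM. The part of these markers in the results that follow was not tested. In bulk liver, fewer cells of a type and less RNA per cell cannot be told apart.

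The nuclear-encoded members fell into 37 genes of complex I, 4 of complex II, 8 of complex III, 14 of complex IV, 17 of complex V and 9 assembly or associated factors (*Ndufaf1* to *Ndufaf8* and *Cox7a2l*, a supercomplex factor). *Ndufa4* and its paralog *Ndufa4l2* were placed with complex IV, where the NDUFA4 protein resides. Levels between genes were compared as CPM per kb of exon, taken over the merged exons of all annotated transcripts of a gene. Their median over the 27 mice was 42.6 CPM per kb in complex I, 91.1 in complex II, 133 in complex III, 82.7 in complex IV, 66.3 in complex V and 8.74 in the factors. The highest were *Atp5a1* at 308 CPM per kb, the alpha subunit of the catalytic head of ATP synthase, *Cox6a1* at 288, *Cox8a* at 283 and *Atp5b*, the catalytic beta subunit, at 277. This order depends on the merged exon length, and without it *Atp5b* had 1173 CPM and *Atp5a1* 965. By median, the assembly and associated factors lay below the subunits of every complex.

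**Figure D1:**
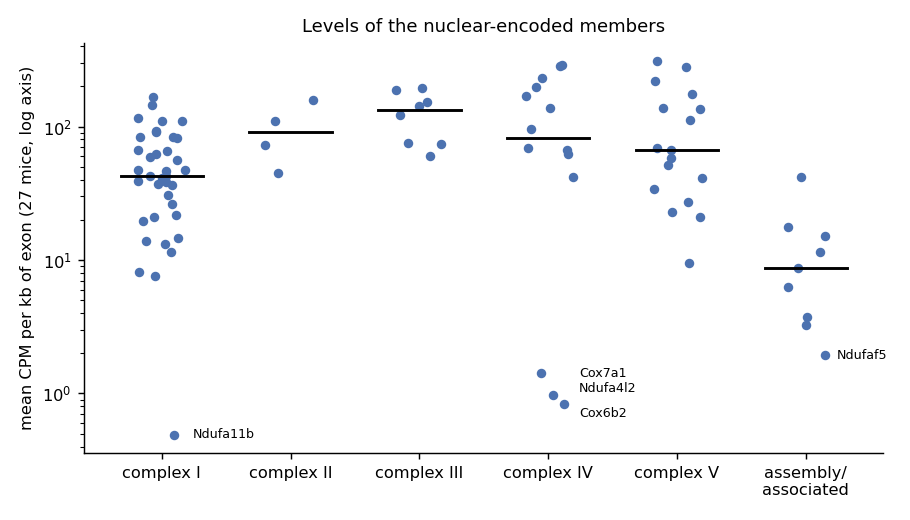
Mean CPM per kb of exon over 27 mice (log axis) for each of the 89 nuclear-encoded members (points) by complex, with the median of each complex as a bar. Only *Ndufa11b*, *Cox6b2*, *Ndufa4l2*, *Cox7a1* and *Ndufaf5* lie under 3 CPM per kb, against medians of 42.6 to 133 for the 5 complexes.

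Of the isoform pairs *Cox6b1* and *Cox6b2*, *Cox7a2* and *Cox7a1*, and *Ndufa4* and *Ndufa4l2*, the first form made up nearly all of the level per kb. *Cox6b1* reached 233 CPM per kb and *Cox6b2*, known from testis, 0.829 CPM per kb. *Cox7a2* stood at 137 CPM per kb against 1.42 for *Cox7a1*, the heart and skeletal muscle form, and *Ndufa4* at 170 against 0.973 for *Ndufa4l2*, a gene known to be induced by hypoxia. Of the c-ring genes of ATP synthase, which encode the same mature protein, *Atp5g3* gave 177 CPM per kb, *Atp5g2* 27.1 and *Atp5g1* 23.0. The order of *Atp5g2* and *Atp5g1* depends on their merged exon lengths, 1675 and 4912 bases. Without that scaling they had 45.3 and 113 CPM, and *Atp5g3* 386. The 5 matching symbols left out were also isoforms. *Cox4i2* had 56 counts over the 27 libraries, *Cox6a2* 49, *Cox8b* 23, *Cox7b2* 1 and *Cox8c* 0, and none had 10 counts in any library. Just inside the threshold was *Ndufa11b*, a paralog of *Ndufa11*, with 10 counts or more in 8 libraries and between 4 and 26 counts. One of the 3 rows of *Ndufb4* had 10 counts in 17 libraries, and every other row of a member in all 27.

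The 13 mitochondrially encoded members split by counted level into 7 and 6. The first 7 ran from 2600 CPM per kb (*mt-Nd4*) to 11610 (*mt-Co1*, the catalytic subunit of complex IV), with *mt-Cytb*, the cytochrome b of complex III, at 8093. The other 6 (*mt-Co2*, *mt-Co3*, *mt-Atp6*, *mt-Atp8*, *mt-Nd3* and *mt-Nd4l*) ran from 28.1 to 138 CPM per kb. These 6 are neighbors on the mitochondrial genome between *mt-Co1* and *mt-Nd4*. The GRCm38 annotation holds a run of 7 pseudogenes on chromosome 1 (24611535 to 24616197, minus strand) that copies this stretch. Of all 50-base windows of a transcript, the share found letter for letter in one of these pseudogenes was 99.5% for *mt-Co2*, 99.5% for *mt-Atp6*, 99.9% for *mt-Co3*, 98.0% for *mt-Nd3* and 98.8% for *mt-Nd4l*. It was 62.2% for *mt-Nd4*, 28.7% for *mt-Co1* and 0% for *mt-Nd1*, *mt-Nd2*, *mt-Nd5*, *mt-Nd6* and *mt-Cytb*. *mt-Atp8* also had 0%, but on chromosome 1 its place is a gap of 233 bases between the copies of *mt-Co2* and *mt-Atp6* (24614652 to 24614884) that carries no annotated pseudogene, and that sequence was not analysed here. How reads that match both places were counted is not given in the sources used here, and their part in the low values was not tested. *mt-Nd3*, a core subunit of complex I, is shown with its copy because it is the only one of the 5 nearly fully shared genes with a difference, T3C over 345 aligned bases, counted from the first base of the gene. Both stretches run 5′ to 3′ in GRCm38, at chrM:9459-9578 on the plus strand and chr1:24613000-24613119 on the minus strand, with the differing base in capitals.
mt-Nd3: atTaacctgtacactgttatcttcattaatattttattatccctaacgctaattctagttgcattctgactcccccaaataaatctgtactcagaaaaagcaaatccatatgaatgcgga
Gm28438: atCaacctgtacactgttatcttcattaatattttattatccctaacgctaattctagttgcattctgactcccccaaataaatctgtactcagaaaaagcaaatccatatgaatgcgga
Apart from the third base, the stretches shown are identical, and the alignments of *mt-Co2*, *mt-Atp6*, *mt-Co3*, *mt-Nd4l* and the shared part of *mt-Nd4* held 0 differences.

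**Figure D2:**
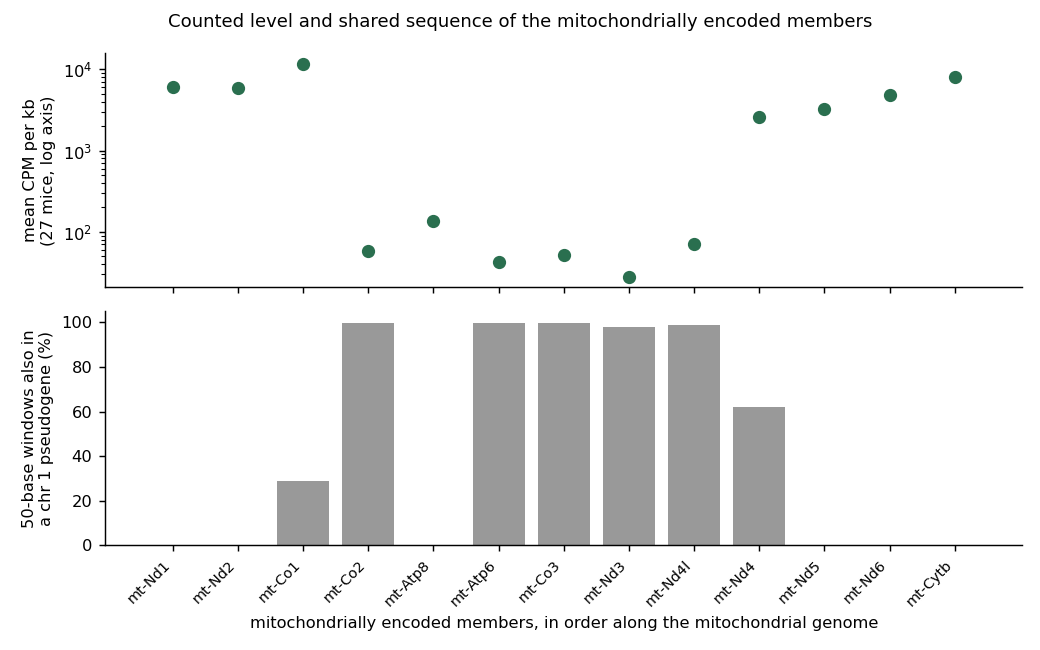
Mean CPM per kb over 27 mice (upper panel, log axis) and the percentage of 50-base windows found in a chromosome 1 pseudogene (lower panel) for the 13 mitochondrially encoded members in genome order. The 6 genes from *mt-Co2* to *mt-Nd4l* lie between 28.1 and 138 CPM per kb and the other 7 between 2600 and 11610, and *mt-Atp8* is the one gene of the 6 with a share of 0%.

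The diet comparison in HGFAC-KO mice gave the largest shift of the nuclear-encoded members. On HF/HS their fitted log2 fold change was below 0 for 87 of the 88 tested, with a median of -0.17, where 49.2% of the 13613 genes tested lay below 0 and their median was 0.00. At an unadjusted p under 0.05 there were 57 nuclear-encoded members, each lower, against 10.9% of all genes in that direction and 22.4% in either. At an adjusted p under 0.05 (edgeR) 3 members were lower and 0 higher, against 2.73% of all genes lower and 5.89% in either direction, so the differences were small for each gene and of 1 direction across genes. DESeq2 called 21 lower, where it called 10.3% of all genes in either direction, and limma voom 2, where it called 5.85%. Each complex had a median below 0. It was -0.17 in complex I (27 of 36 under 0.05 without adjustment), -0.14 in complex II (3 of 4), -0.19 in complex III (6 of 8), -0.21 in complex IV (11 of 14) and -0.17 in complex V (9 of 17). The assembly and associated factors had a median of -0.09, with 1 of 9 under 0.05. The count of 3 ranged from 0 to 28 when 1 mouse was left out, with 28 without HGFAC-KO HF/HS replicate 5 (where 950 of 13553 genes were called in either direction), whereas 85 to 88 of the 88 stayed below 0.

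The called members were *Cox6a1*, *Ndufb9* and *Ndufv1*. They passed in 4, 3 and 6 of 13 fits with 1 mouse left out, in that order. *Cox6a1* encodes the liver form of subunit 6A of complex IV (chromosome 5, 115345642 to 115348981). Its lowest, median and highest values were 183, 221 and 250 CPM in HGFAC-KO mice on chow and 169, 179 and 205 CPM on HF/HS, so that the groups overlapped at their edges. The log2 fold change was -0.28 ± 0.08 (SE; edgeR adjusted p = 0.0438; two-sided exact permutation p = 0.00758). *Ndufb9*, an accessory subunit in the membrane arm of complex I (chromosome 15, 58933756 to 58939488), had 141, 164 and 189 CPM on chow and 126, 137 and 154 CPM on HF/HS. It changed by -0.25 ± 0.07 (adjusted p = 0.0482; exact permutation p = 0.00641). *Ndufv1*, the NADH-binding core subunit of complex I (chromosome 19, 4007384 to 4012806), had 150, 167 and 175 CPM on chow and 136, 143 and 154 CPM on HF/HS, and changed by -0.20 ± 0.05 (adjusted p = 0.0325; exact permutation p = 0.00233). In controls the same contrast gave -0.12 for *Cox6a1* (adjusted p = 0.286), -0.11 for *Ndufb9* (adjusted p = 0.253) and -0.10 for *Ndufv1* (adjusted p = 0.171), and the difference between genotypes, tested as an interaction, had an adjusted p of 0.984 for each of the 3.

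Among nuclear-encoded members that did not pass, *Cox5b*, a zinc-binding subunit of complex IV, had the estimate farthest from 0, -0.35 ± 0.11 (adjusted p = 0.0812). Its values were 102, 122 and 134 CPM in HGFAC-KO mice on chow and 62.9, 90.5 and 117 CPM on HF/HS. *Uqcr11*, a small subunit of complex III, had -0.35 ± 0.11 (adjusted p = 0.0825), *Uqcrc1*, a core protein of the same complex, -0.19 ± 0.06 (adjusted p = 0.059), and *Sdhb*, the iron-sulfur subunit of complex II, -0.23 ± 0.08 (adjusted p = 0.104). In complex V the smallest p was that of *Atp5f1*, the peripheral stalk subunit b, at -0.19 ± 0.06 (adjusted p = 0.0601). *Ndufaf6*, an assembly factor of complex I, had -0.19 ± 0.08 (adjusted p = 0.16). *Atp5b* was the only member whose groups did not overlap, a property chosen after its values were seen, with 1183 to 1267 CPM on chow and 1048 to 1142 CPM on HF/HS (-0.15 ± 0.05, adjusted p = 0.0828). Of all genes tested, 1.31% were lower without overlap. The one nuclear-encoded member not below 0 was *Ndufa8*, an accessory subunit of complex I, at 0.01 ± 0.06.

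**Figure D3:**
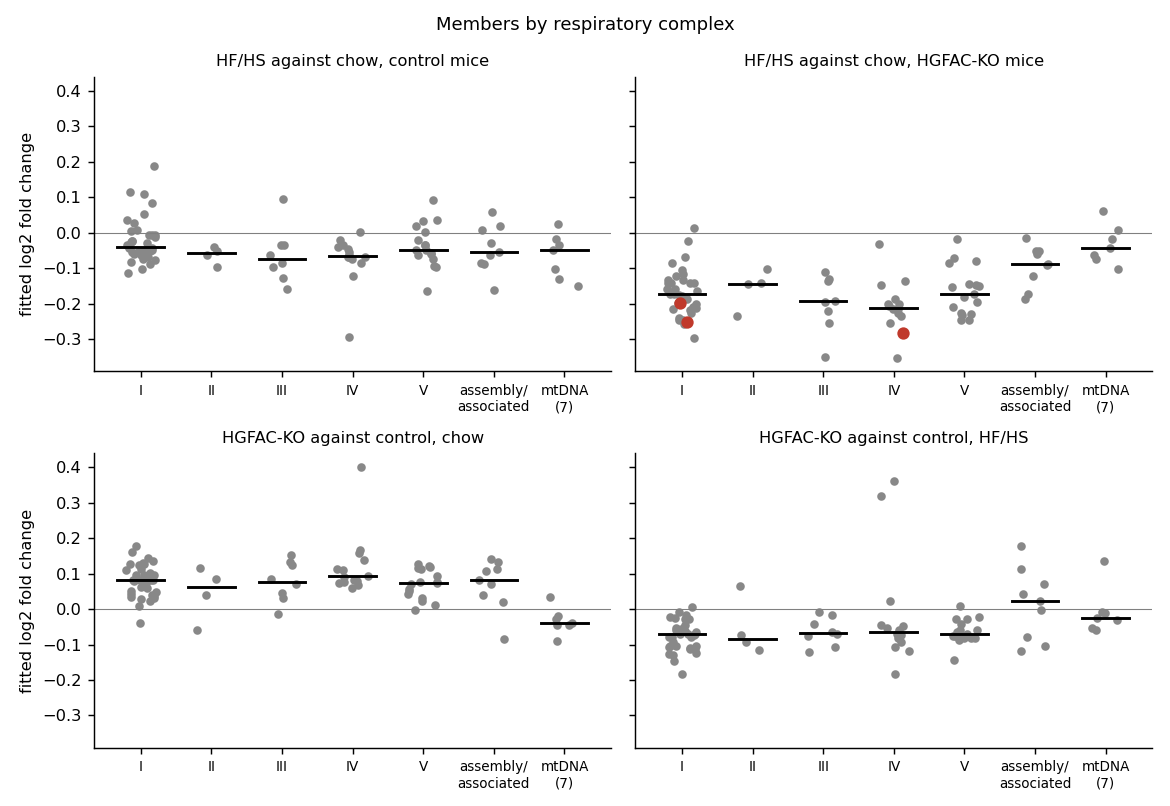
Fitted log2 fold changes of the tested members (points) in 4 comparisons, by complex for nuclear-encoded members and together for the 7 well counted mitochondrially encoded members, with medians as bars and members at an edgeR adjusted p under 0.05 in red. In HGFAC-KO mice the medians of the 5 complexes on HF/HS lie between -0.21 and -0.14 and that of the 7 mitochondrially encoded members at -0.04; the 6 sparsely counted mitochondrial genes are not drawn.

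The mitochondrially encoded members centred near 0. Their median log2 fold change on HF/HS in HGFAC-KO mice was 0.01 over all 13 and -0.04 over the 7 well counted ones, and 0 of 13 had an unadjusted p under 0.05. *mt-Co1* had 16152, 18436 and 21595 CPM (lowest, median and highest) on chow and 15611, 17267 and 18670 CPM on HF/HS, and the groups overlapped widely (-0.10 ± 0.08, adjusted p = 0.467). *mt-Cytb* had -0.06 ± 0.07 and *mt-Nd5*, a proton-pumping subunit of complex I, 0.06 ± 0.12. *mt-Nd1* had -0.04 ± 0.09, *mt-Nd2* 0.01 ± 0.06, *mt-Nd4* -0.08 ± 0.09 and *mt-Nd6* -0.02 ± 0.09, all within about 1 SE of 0. Among the sparsely counted 6, the estimate of *mt-Atp8* was 0.76 ± 0.41 (adjusted p = 0.306). HGFAC-KO HF/HS replicate 3 stood at 120 CPM, the next mouse of its group at 52.7 CPM and the lowest at 21.8 CPM. The remaining 5 ran from -0.13 (*mt-Nd3*) to 0.39 (*mt-Nd4l*), with 0.13 for *mt-Atp6*, 0.19 for *mt-Co2* and 0.09 for *mt-Co3*. All mitochondrially encoded counts together made up 4.59% to 6.06% of the named counts of a library.

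In control mice the estimates on HF/HS were closer to 0. Of the 88 nuclear-encoded members, 69 lay below 0, with a median of -0.05, where 48.9% of all genes did. No member passed the adjusted threshold, where 10.5% of the 13525 genes did. At an unadjusted p under 0.05 there were 9 members (7 lower and 2 higher), against 25.4% of all genes. DESeq2 called 3 lower and 1 higher, where it called 14.3% of all genes, and limma voom 0, where it called 10.7%. The median ran from -0.08 (without control HF/HS replicate 3, 21 members under 0.05) to -0.03 (without control HF/HS replicate 1, 6 members) when 1 mouse was left out. With each library's trend with exon length taken out, a step chosen after the data were seen, the median was -0.02. In that fit 56 of 88 lay below 0, and the median of all genes was 0.01. The smallest p was that of *Ndufa8*, whose lowest, median and highest values were 83.4, 85.3 and 99.2 CPM on chow and 93.7, 98.2 and 117 CPM on HF/HS (0.19 ± 0.06, adjusted p = 0.0533; exact permutation p = 0.00874). The upper chow mice reached into the HF/HS range. *Ndufa8* passed the adjusted threshold in 5 of 9 other settings and in 3 of 14 fits with 1 mouse left out. The smallest p in complex V was that of *Atp5mpl*, a small membrane subunit (-0.16 ± 0.06, adjusted p = 0.0716), in complex III *Uqcr10* (-0.16 ± 0.06, adjusted p = 0.121) and in complex II *Sdhd*, a membrane anchor (-0.10 ± 0.06, adjusted p = 0.313). The 7 well counted mitochondrially encoded members had a median of -0.05, and *mt-Nd1* had the largest estimate among them, -0.15 ± 0.07 (adjusted p = 0.222).

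Genotype comparisons called no member on either diet. Each shares a group of mice with each diet comparison (HGFAC-KO mice on chow enter both the diet comparison in HGFAC-KO mice and the genotype comparison on chow), so the directions are not independent. On chow 83 of 88 nuclear-encoded members were above 0, with a median of 0.08, while 48.8% of all genes were below 0, and 8 members had an unadjusted p under 0.05, against 5.98% of all genes. DESeq2 (11 of 13571 genes called, with an adjusted p for 82 of the 101 members) and limma voom (1 gene) also called 0 members. Without HGFAC-KO chow replicate 1 the median was 0.03, with 13 of 88 below 0, and the count of 8 ran from 3 (without HGFAC-KO chow replicate 2 or control chow replicate 7) to 24 (without HGFAC-KO chow replicate 6). Of the 13571 genes tested 0.00737% passed the adjusted threshold, which is *Hgfac* alone. The smallest p was that of *Cox7a2l* at 0.13 ± 0.04 (60.6 ± 1.81 CPM in controls, SD, n = 7, and 66.2 ± 3.58 in HGFAC-KO mice, SD, n = 6; edgeR adjusted p = 0.801; exact permutation p = 0.00816). The smallest p in complex II was that of *Sdhd* (0.12 ± 0.04), in complex I *Ndufc1* (0.16 ± 0.07), in complex III *Uqcr11* (0.15 ± 0.08) and in complex V *Atp5o* (0.12 ± 0.07). *Cox6b2* had 0.40 ± 0.14 at a level of about 1 CPM. On HF/HS 77 of 88 lay below 0, with a median of -0.07, against 50.5% of all genes, and 5 members had an unadjusted p under 0.05 (4 lower and 1 higher), against 9.64%. Over all genes 0.0148% passed the adjusted threshold, and DESeq2 (55 of 13544 genes called) and limma voom (2 genes) called 0 members. The 13 mitochondrially encoded members had a median of -0.02 on chow and 0.05 on HF/HS, with 0 at an unadjusted p under 0.05 on either diet. The 7 well counted ones had -0.04 on chow and -0.02 on HF/HS (6 of 7 below 0 on each), and the 6 sparsely counted ones 0.15 (5 of 6 above 0) and 0.23 (6 of 6). Without control HF/HS replicate 3 the nuclear-encoded median was -0.04, and the count of 5 ran from 2 (without HGFAC-KO HF/HS replicate 2 or 6) to 26 (without HGFAC-KO HF/HS replicate 5). *Ndufb3*, an accessory subunit of complex I, had the smallest p (-0.18 ± 0.07, adjusted p = 0.448), *Sdha*, the catalytic flavoprotein of complex II, -0.11 ± 0.05, *Ndufaf4* 0.18 ± 0.08, *Cox6b1* -0.12 ± 0.06, *Uqcrc2* -0.06 ± 0.04 and *Atp5k* -0.14 ± 0.09. The summed hepatocyte markers were 73831 to 87700 CPM in controls and 85561 to 97402 CPM in HGFAC-KO mice on chow, and 73421 to 90424 and 84026 to 111840 CPM on HF/HS. The summed cholangiocyte markers had medians of 41.7 and 54.2 CPM on chow and 47.5 and 58.4 CPM on HF/HS. Within this sum *Sox9* had the largest genotype estimates, with log2 fold changes of 0.55 (chow) and 0.78 (HF/HS). *Krt7* (-0.09), *Epcam* (-0.06) and *Spp1* (-0.03) were below 0 under HF/HS, and *Krt19* was above 0 (0.11). Under chow these genes lay above 0, from 0.03 (*Krt7*) to 0.27 (*Spp1*). No single marker passed the adjusted threshold between genotypes, and the part of these markers in the genotype results was not tested.

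The difference between the genotypes in the diet effect was tested over all 27 mice. It was below 0 for 84 of the 89 nuclear-encoded members, with a median of -0.14, where 48.7% of the 13932 genes tested lay below 0. Of the 89, 13 had an unadjusted p under 0.05, each with a lower diet effect in HGFAC-KO mice, against 3.63% of all genes. That count depended on single mice: it was 3 without HGFAC-KO chow replicate 1 or 2, control chow replicate 5 or control HF/HS replicate 3, and 36 without HGFAC-KO HF/HS replicate 5. Between 82 and 85 of the 89 lay below 0 with any 1 mouse left out. No member and 0% of all genes passed adjustment (edgeR, smallest adjusted p of a member 0.984), and neither did any member with DESeq2 or limma voom. *Ndufs3*, a core subunit of the arm of complex I that binds ubiquinone, had the smallest p, with an interaction of -0.23. Its values were 79.5, 87.5 and 93.0 CPM in controls on chow, 78.5, 87.1 and 93.1 in controls on HF/HS, 84.7, 91.7 and 98.3 in HGFAC-KO mice on chow and 73.1, 77.6 and 89.9 in HGFAC-KO mice on HF/HS. *Cox5b* had -0.32, *Atp5k* -0.27, *Uqcrq* -0.23, *Sdhb* -0.17 and *Cox7a2l* -0.13. The 7 well counted mitochondrially encoded members had a median interaction of 0.02.

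The mean relative level of the 89 nuclear-encoded members, taken per mouse as log2 CPM minus the mean over all 27 mice, placed the groups in the same order. It was 0.09 ± 0.12 (SD, n = 6) in HGFAC-KO mice on chow, 0.02 ± 0.07 (SD, n = 7) in controls on chow, -0.02 ± 0.10 (SD, n = 7) in controls on HF/HS and -0.08 ± 0.08 (SD, n = 7) in HGFAC-KO mice on HF/HS. All 4 ranges overlapped. HGFAC-KO chow replicates 1 and 2 were the highest of all mice, at 0.27 and 0.19, and the HF/HS minus chow difference in HGFAC-KO mice went from -0.16 to -0.13 without the first and to -0.14 without the second. The genotype difference on chow went from 0.07 to 0.03 without the first and to 0.05 without the second. The diet difference in controls went from -0.04 to -0.02 without control HF/HS replicate 1 and to -0.07 without replicate 3, and the genotype difference on HF/HS from -0.05 to -0.03 without control HF/HS replicate 3. The mean for the 7 well counted mitochondrially encoded members was 0.04 ± 0.13 in controls on chow and between -0.03 and 0.00 in the other 3 groups.

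**Figure D4:**
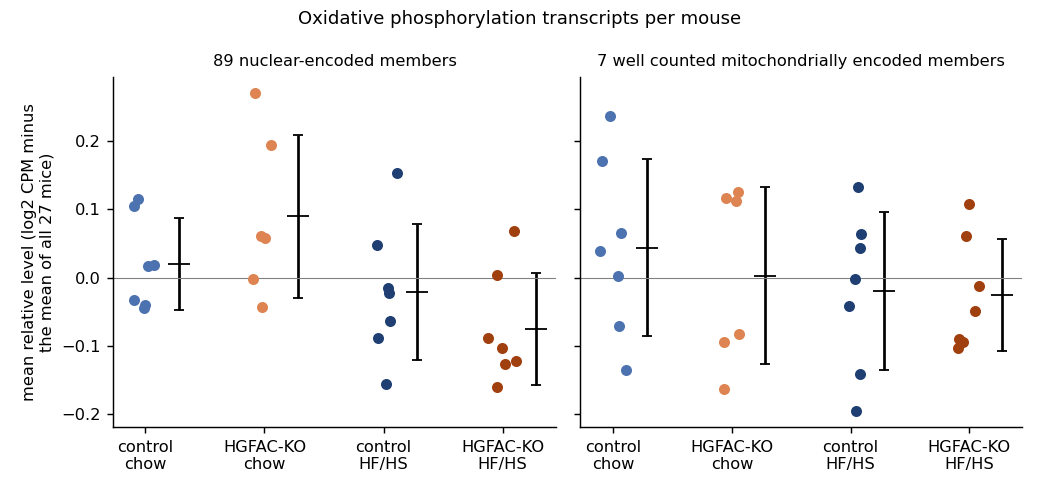
Mean relative level per mouse (log2 CPM minus the mean of all 27 mice) of the 89 nuclear-encoded (left) and the 7 well counted mitochondrially encoded members (right), with 1 point per mouse and group mean ± SD beside it. The nuclear-encoded mean is 0.09 in HGFAC-KO mice on chow and -0.08 on HF/HS, with overlapping ranges, while the mitochondrial means lie between -0.03 and 0.04.

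Within groups the nuclear-encoded members varied together. After each group's mean was taken out, the median Pearson correlation over 3916 pairs was 0.67 across the 27 mice, where it was 0.00 over all pairs of tested genes. Pairs within complex I had a median of 0.73, within complex V 0.77, and pairs from different complexes 0.73, so that pairs within a complex were about as close as pairs across complexes. The 4 genes of complex II stood lower, at 0.22, and the assembly and associated factors against complex I subunits at 0.32. *Ndufs6*, *Cox8a* and *Cox6b1* followed the mean of the other nuclear-encoded members most closely (r = 0.95 each), and *Ndufs1*, the largest core subunit of complex I, ran against it (r = -0.40). Nuclear-encoded against the 7 well counted mitochondrially encoded members gave a median of -0.07, and the latter among themselves 0.47. Such covariation was not particular to the members. Pairs of cytosolic ribosomal protein genes had a median of 0.73, and nuclear-encoded members against ribosomal protein genes 0.59. All these points share library, depth and scaling.

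The nuclear-encoded mean also moved with other features of the libraries, whose part in the diet result was not tested beyond the values given here. Its correlation with the mean relative level of the cytosolic ribosomal protein genes was 0.84 (Spearman 0.76) over 27 mice with group means removed, and 0.79 without the 2 mice farthest out. With the share of counts in unnamed rows, which ran from 4.13% to 12.1% of a library, it was -0.69 (Spearman -0.71), and with the log2 of the library total -0.41 (Spearman -0.38), or -0.19 without the 2 mice farthest out. On HF/HS in HGFAC-KO mice 81 of 84 ribosomal protein genes lay below 0, with a median of -0.12 and 0 past the adjusted threshold, and on chow all 84 were above 0 in HGFAC-KO mice, with a median of 0.15. In the interaction 80 of 84 lay below 0, with a median of -0.13. The other comparisons differed from the members. In controls 50 of 84 were above 0 on HF/HS (median 0.01, members -0.05), and between genotypes on HF/HS 55 of 84 (median 0.02, members -0.07). Without HGFAC-KO chow replicate 1 the mean ribosomal difference went from -0.12 to -0.05 between diets in HGFAC-KO mice and from 0.14 to 0.08 between genotypes on chow. Genes with under 1 kb of exon, members and ribosomal protein genes left out, had a median of -0.10 in the diet comparison of HGFAC-KO mice (220 of 344 below 0), against 0.01 for longer genes. Nuclear-encoded members under 1 kb had a median of -0.22 and those of 1 kb or more -0.16, with all 68 of the latter below 0. When each library's trend with exon length, fitted on genes that are no members, was taken out (a step chosen after the data were seen), the median of the nuclear-encoded members was -0.13. The median of all genes was then -0.02, where it was 0.00 before. In that fit 85 of 88 lay below 0, 46 members had an unadjusted p under 0.05 and 1 passed adjustment, where 814 of 13569 genes did in either direction.

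**Figure D5:**
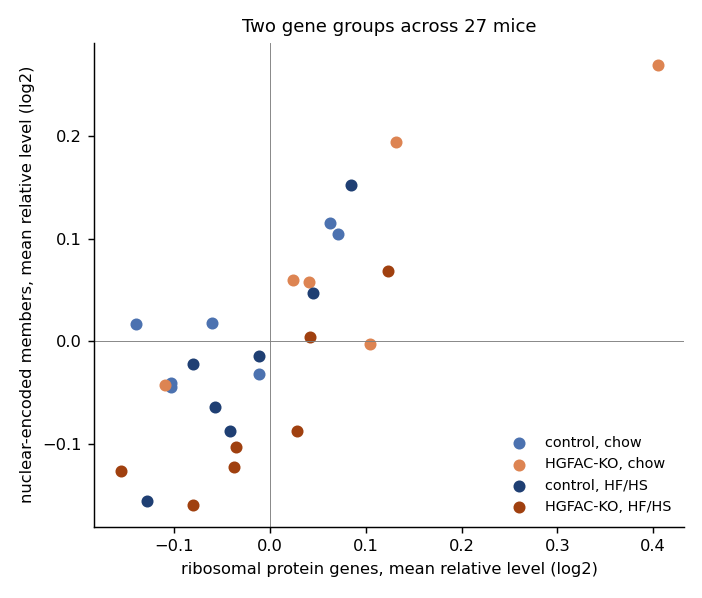
Mean relative level (log2) of the nuclear-encoded members against that of the cytosolic ribosomal protein genes, with 1 point per mouse colored by group and group means left in. HGFAC-KO chow replicate 1 lies at the upper right (0.40 and 0.27), and the remaining mice spread along the same diagonal.

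Genes that regulate or surround the pathway were taken from hand-written lists, and those named below passed the edgeR adjusted threshold of 0.05, as did 10.5% of all genes in the diet comparison of controls and 5.89% in that of HGFAC-KO mice. Among 12 regulators of mitochondrial biogenesis, *Esrra*, an orphan nuclear receptor that drives oxidative phosphorylation genes, was lower on HF/HS in controls (mean 72.4 CPM on chow and 56.7 on HF/HS; -0.35 ± 0.07, edgeR adjusted p = 0.00303) and in HGFAC-KO mice (mean 83.4 CPM on chow and 64.4 on HF/HS; -0.37 ± 0.10, adjusted p = 0.0419). In controls *Ppara*, the receptor for fatty acid oxidation, was higher (0.42 ± 0.10, adjusted p = 0.0162) and *Ppard* lower (-0.25 ± 0.06, adjusted p = 0.0233). Of 12 genes for uncoupling, shuttles and transhydrogenase, 10 were tested. *Gpd2*, which passes electrons from glycerol 3-phosphate to the chain, was higher in both genotypes (0.67 ± 0.10 and 0.67 ± 0.13). In controls its cytosolic partner *Gpd1* (0.28 ± 0.07) and *Slc25a13* (0.16 ± 0.05) were higher and *Slc25a12* lower (-0.30 ± 0.05). *Ucp2* was higher in HGFAC-KO mice (0.47 ± 0.11). The TCA cycle list of 17 genes includes *Pcx*, pyruvate carboxylase, which is not an enzyme of the cycle itself. This list held 1 call in controls, *Pcx* (0.43 ± 0.06), and 1 in HGFAC-KO mice, *Mdh2*, mitochondrial malate dehydrogenase (-0.27 ± 0.05). Its share of calls was no larger in controls than that of all genes and about equal to it in HGFAC-KO mice.

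Of 18 genes for electron carriers and coenzyme Q synthesis, *Coq8b* was lower in both genotypes (-0.23 ± 0.06 and -0.27 ± 0.07), *Etfdh*, which feeds electrons from fatty acid oxidation to ubiquinone, was higher in controls (0.19 ± 0.05) and *Coq7* was lower in HGFAC-KO mice (-0.29 ± 0.07). Of 24 genes for transcription and RNA processing of mitochondrial DNA, *Pnpt1* was higher in both genotypes (0.31 ± 0.08 and 0.25 ± 0.07), and *Fastkd1* and *Rexo2* were lower in controls (-0.19 ± 0.05 and -0.16 ± 0.05). Of 41 assembly factors outside the member rule 40 were tested, and *Cox15* was higher in controls (0.15 ± 0.05) and *Foxred1* lower in HGFAC-KO mice (-0.21 ± 0.05). *Timm50* of 16 genes for mitochondrial mass and import was lower in HGFAC-KO mice (-0.21 ± 0.05), and of 11 genes for mitochondrial DNA maintenance 0 were called (edgeR, 1 in each genotype at an unadjusted p under 0.05). The calls in these 8 lists all came from the diet comparisons, and the genotype and interaction fits called 0 of their genes. Their medians in the diet comparison of HGFAC-KO mice ran from -0.08 to 0.10, against -0.17 for the nuclear-encoded members. Below 0 were 15 of 18 electron carrier and coenzyme Q genes and 13 of 16 for mass and import. At an unadjusted p under 0.05, 4 and 5 of these were lower, against 10.9% of all genes. Above 0 were 9 of 12 regulators and 6 of 10 genes for uncoupling, shuttles and transhydrogenase.

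Promoters, taken as 250 bases before to 50 after the RefSeq start in GRCm38.p6, were listed for 73 of the 89 nuclear-encoded members and searched on both strands for 4 motifs linked to respiratory genes. The NRF1 motif, GCGCA followed by any base and GCGC, occurred in 18 of the 73 (24.7%), against 4.78% of all 27025 promoters and 9.90% of those of tested genes. CCGGAAG, the ETS core bound by GABPA, occurred in 18 of 73 (24.7%, against 9.12% and 17.1%), AAGATGGCG, bound by YY1, in 7 (9.59%, against 1.49% and 2.99%) and TCAAGGTCA, the site of estrogen-related receptors, in 2 (2.74%, against 0.407% and 0.301%). At least 1 of the 4 was found in 37 members (50.7%, against 14.4% and 27.3%). Shown 5′ to 3′ on the gene's strand are *Cox6a1* and *Ndufv1*, called members with an entry, and *Ndufs3*, with the smallest interaction p, and capitals mark matches, which are a description and not a shown binding site. They lie at chr5:115348909-115349208, chr19:4012706-4013005 and chr2:90904672-90904971, all on the minus strand.
Cox6a1: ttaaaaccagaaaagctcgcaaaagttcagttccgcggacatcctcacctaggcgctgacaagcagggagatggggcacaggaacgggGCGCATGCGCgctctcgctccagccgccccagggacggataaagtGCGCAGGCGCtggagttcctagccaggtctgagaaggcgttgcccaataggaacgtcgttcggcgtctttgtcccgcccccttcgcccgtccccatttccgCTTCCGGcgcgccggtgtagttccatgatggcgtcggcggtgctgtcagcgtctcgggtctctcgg
Ndufv1: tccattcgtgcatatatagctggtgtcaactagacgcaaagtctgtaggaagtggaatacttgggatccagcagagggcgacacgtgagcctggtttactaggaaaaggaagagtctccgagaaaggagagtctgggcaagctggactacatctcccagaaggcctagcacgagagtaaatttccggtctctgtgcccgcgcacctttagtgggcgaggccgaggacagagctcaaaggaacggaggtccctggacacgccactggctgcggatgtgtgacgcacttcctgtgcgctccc
Ndufs3: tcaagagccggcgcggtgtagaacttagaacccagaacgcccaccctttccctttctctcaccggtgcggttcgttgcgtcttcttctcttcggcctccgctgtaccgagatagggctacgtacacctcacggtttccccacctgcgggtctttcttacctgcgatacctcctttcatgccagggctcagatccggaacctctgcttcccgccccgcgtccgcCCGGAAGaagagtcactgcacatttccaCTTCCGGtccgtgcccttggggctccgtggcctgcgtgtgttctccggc
*Cox6a1* held the NRF1 motif at -162 and -117 and the ETS core at -16, and *Ndufs3* the ETS core at -27 and 2, counted from the start. *Ndufv1* held none of these letters in this window.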

How the data were processed

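RNA-Seq counts per gene were deposited as 1 table of 27 mice. The authors made stranded mRNA libraries, aligned reads to GRCm38 with HISAT2 and counted them with featureCounts 1.6.3, without normalization; the strand setting and the handling of reads with several matches are not given in the sources used here. Of 27179 rows, 3886 named no gene (4.13% to 12.1% of counts) and were left out of the fits and of library totals. Rows of 1 symbol were summed. Groups came from the labels. Counts were fitted in R 4.3.3 with edgeR 4.0.16 (TMM, filterByExpr with minimum count 10 and total 15, robust quasi-likelihood test, Benjamini-Hochberg adjustment over all genes, threshold 0.05). Pairwise comparisons used their own groups and the interaction all mice. Log2 CPM used a prior count of 2, and permutation tests were exact, two-sided and unadjusted. Exon lengths came from GENCODE, with all annotated exons of a gene merged. Ribosomal protein symbols began with Rpl or Rps, kinases and pseudogenes left out. Alternatives were DESeq2 1.42.0, limma 3.58.1 voom, upper-quartile and nuclear-only scaling, 2 other filters, a replicate block, 1 fit of all mice, and each mouse left out. The fits were tested on simulated data. No 2 libraries agreed within sampling noise. Named genes were all mitochondrially encoded members, the smallest p in each complex and comparison, called members, isoforms and members at the count threshold. Members and lists were chosen with earlier results of these data known.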

Additional observations from a re-analysis of the deposited data

Results flagged for a closer look

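In 200 groups of 6 or 7 mice, 10 held a mouse whose gap to its nearest neighbor took an unusually large part of the group's range, and chance gives about 1 in 20. The part is given after each value. Of the 10, 7 were sparsely counted mitochondrial genes. In HGFAC-KO HF/HS replicate 6, *mt-Atp6* reached 65.0 CPM, where the next mouse had 30.3 (0.849), and *mt-Co3* 89.1 CPM, where the next had 43.1 (0.807). *mt-Atp8* reached 120 CPM in HGFAC-KO HF/HS replicate 3, with the next at 52.7 (0.687). In controls on HF/HS, *mt-Co3* was at 68.5 CPM in replicate 5 (group median 37.8; 0.703), *mt-Nd3* at 12.5 in replicate 2 (next 9.19; 0.690) and *mt-Nd4l* at 44.7 in replicate 4 (group median 19.8; 0.782). On chow, *mt-Nd4l* was at 27.4 CPM in control replicate 1 (next 21.2; 0.579). The other 3 were nuclear encoded. Control chow replicate 2 had 175 CPM of *Ndufv1* (next 165; 0.655) and 214 of *Sdhd* (next 199; 0.582), and HGFAC-KO chow replicate 1 had 1.66 CPM of *Cox7a1* (next 0.906; 0.636).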

How the results depend on the processing

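In HGFAC-KO mice on HF/HS the number of members called lower was 3, and it was 21 with DESeq2, 28 in 1 fit of all 27 mice, 5 with scaling on nuclear-encoded genes, 1 with the replicate block, 0 without a filter on low counts and 1 with the length trend removed, an alternative chosen after seeing the data. Over all genes, in either direction, the calls in these fits were 802 of 13613 as reported and 1405 of 13613, 1163 of 13932, 817 of 13613, 602 of 13613, 661 of 18058 and 814 of 13569 in the same order. Leaving out 1 mouse gave 0 to 28. It was 0 without HGFAC-KO chow replicate 2, 4 or 5 or HF/HS replicate 1, 3, 6 or 7. Those fits called 467 to 630 of 13542 to 13697 genes in either direction. The number was 1 without chow replicate 1 (879 of 13669 genes) or HF/HS replicate 2 (691 of 13539) and 2 without HF/HS replicate 4 (696 of 13541). It was 5 without chow replicate 3 (622 of 13685), 9 without chow replicate 6 (783 of 13669) and 28 without HF/HS replicate 5 (950 of 13553). The median of the nuclear-encoded members stayed between -0.21 and -0.13 under all of these. In control mice the number called higher was 0 as reported. It was 1, *Ndufa8*, with DESeq2, nuclear-only scaling, 10 counts in every library, 1 fit of all mice or the length trend removed. The number called lower was 0, and 3 with DESeq2. Over all genes, in either direction, the calls were 1424 of 13525 as reported. In the alternatives named they were 1939 of 13525, 1433 of 13525, 1390 of 12718, 1418 of 13932 and 1497 of 13483 in the same order. Leaving out 1 mouse gave 0 to 1 higher and 0 to 3 lower. *Ndufa8* was higher without chow replicate 1 (1115 of 13588 genes called), HF/HS replicate 1 (1125 of 13584) or 7 (1430 of 13592). The number lower was 3 without HF/HS replicate 3 (1305 of 13582) and 1 without HF/HS replicate 5 (1100 of 13577). The cause of these changes was not tested. The genotype and interaction fits called 0 members under every alternative, the replicate block included. Nuclear-encoded medians kept their sign under every alternative, but their lowest and highest values with 1 mouse left out differed by over 1.5 times in each comparison: -0.08 and -0.03 in the diet comparison of controls (and -0.02 with the length trend removed), -0.21 and -0.14 in that of HGFAC-KO mice, 0.03 and 0.11 between genotypes on chow, -0.10 and -0.04 on HF/HS and -0.17 and -0.09 in the interaction. Mitochondrially encoded medians changed sign in some fits, and between genotypes on HF/HS ran from -0.01 to 0.11 (0.11 without HGFAC-KO HF/HS replicate 1 or 7). The replicate numbers of the labels were checked for pairing: deviations from group means of same-numbered mice correlated from -0.15 to 0.27 between diets in HGFAC-KO mice (4 of 6 pairs over 0.1), from -0.23 to 0.09 in controls (0 of 7), from -0.15 to 0.37 between genotypes on chow (1 of 6) and from -0.25 to 0.29 on HF/HS (3 of 7). No label ties a number to a litter or day, and the numbers were not treated as pairs. With the replicate block the call in HGFAC-KO mice was *Uqcr11*, and *Cox6a1*, *Ndufb9* and *Ndufv1* had edgeR adjusted p of 0.0791, 0.105 and 0.106. Depth limits *Ndufa11b* most, with a median of 8 counts per library.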
